A study of Mus musculus with 6 samples.

Results

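Imprinted genes are transcribed mainly from the copy inherited from 1 parent, and 46 of them were followed here in pituitaries of mice lacking the histone demethylase Jmjd2a, now named Kdm4a. Members were the array probes whose RefSeq accession belonged to a gene on a list of 46 imprinted genes. That gave 68 probes for 43 genes, of 55681 probes for 36984 genes and unnamed features in all. No probe was matched to H19, Meg3 or Rian, so these 3 maternally expressed RNAs have no value here. Of the 43 genes, 39 were well above background on at least 3 of the 6 arrays and were tested. The list held 23 genes grouped as expressed from the paternal copy (21 tested) and 19 grouped as expressed from the maternal copy (14 tested). A further 4 (all 4 tested) were set apart because the active copy differs by tissue or transcript or is less settled in the mouse. The assignment to a parent came from general knowledge of mouse imprinting and was not checked for the pituitary. Members of the paternal and maternal groups can also differ by tissue, as Ube3a does, which is expressed from the maternal copy in neurons. The arrays measure total transcript and cannot tell the parental copies apart.

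Imprinting is set in the germ line, where control regions are methylated in egg or sperm. The mark is kept after fertilization by the zinc-finger proteins ZFP57 and ZFP445 with TRIM28 and the maintenance methyltransferase DNMT1, although most of the genome loses and regains its methylation at that time. Histone marks, among them the lysine methylation of histone H3 on which KDM4A acts, differ between the parental copies at these regions. Many paternally expressed genes promote growth and many maternally expressed genes restrain it, and several, such as Dlk1 and Plagl1, are abundant in the anterior pituitary.

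The KO group comprised 3 females of genotype Jmjd2a-/- and the WT group 3 littermate females of genotype Jmjd2a+/+, all virgin, 8 weeks old and of C57BL6 background. All were exposed to soiled bedding of a stud male, which starts the oestrous cycle (the Whitten effect), and were killed 24 hours later. The sources used here do not say how the null allele was made or which part of the gene it lacks. Each array held the RNA of 1 whole gland. In such bulk samples fewer cells of a type and less RNA per cell cannot be told apart.

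On each array 34634 to 40567 of the 55681 probes were well above background, and 61 to 64 of the 68 imprinted probes. The number of arrays limits the precision of every value. Levels below are log2 signal minus the array's 75th percentile, so that 0 is the 75th percentile and each unit a doubling, and differences are log2 fold changes of KO over WT with the standard error of limma (n = 3 arrays per group). The targeted gene Kdm4a read 1.46, 1.21 and 1.37 on the KO arrays and 2.14, 1.91 and 1.85 on the WT arrays by its brighter probe, a log2 fold change of -0.62 ± 0.14 (adjusted p = 0.265 by limma over all probes). Whether that probe lies in the deleted part is not known. The hormone genes Gh, Prl, Pomc, Cga, Lhb, Fshb and Tshb were well above background on all 6 arrays. The summed signals of dividing-cell and neutrophil markers were highest on the array of WT replicate 3, although Cdk1 and Elane read highest on WT replicate 1. The summed signal of the 5 dividing-cell markers, relative to the 75th percentile, was 0.867 to 1.35 on KO arrays and 2.36 to 10.1 on WT arrays. All 5 were below 0 in KO over WT, 3 of them at an unadjusted p under 0.05. The summed signal of the 7 neutrophil markers was 2.62 to 2.99 on KO arrays and 3.26 to 16 on WT arrays. All 7 were below 0, with 0 of them at an unadjusted p under 0.05. All 5 mesenchyme markers were below 0 in KO over WT, 3 of them at an unadjusted p under 0.05, with sums of 72 to 107 on KO arrays and 88.6 to 121 on WT arrays. Of the 6 Schwann cell markers 5 were below 0, 1 of them at an unadjusted p under 0.05, with sums of 12.9 to 13.9 on KO arrays and 12 to 20.3 on WT arrays. For comparison, 39.3% of all features were above 0, and 8.81% fell below 0 with an unadjusted p under 0.05. The part of dividing cells, neutrophils, mesenchyme and Schwann cells in the results below was not tested.

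None of the imprinted genes was separated from WT after adjustment over all features. Of the 39 tested genes 0 had an adjusted p under 0.05 (limma, Benjamini-Hochberg, lowest 0.331), and 0% of the 26886 features on the array passed. At an unadjusted p under 0.05 stood 5 of the 39, which is 12.8%, and the share among all features was also 12.8%. The 3 KO and 3 WT arrays did not overlap for 7 of the 39 genes, against 20.6% of all features. The shares of imprinted genes were close to or below those of the array as a whole. The number at an unadjusted p under 0.05 moved with single arrays. It was 1 without KO replicate 2, 3 without KO replicate 3, 9 without WT replicate 2 and 3 without WT replicate 3, against 7.99%, 7.29%, 20.4% and 12.1% of all features in that order. It also moved with the scaling. Centring arrays on their median gave 11 of 39 (28.2%, against 13.6% of all features), all higher in KO, where the main scaling gave 4 higher and 1 lower. The authors' deposited values gave 8 of 33 (24.2%, against 14.3%), quantile normalization 7 of 39 (17.9%, against 11.8%), and the fit with the replicate number as a block 5 of 39 (12.8%, against 10.6%).

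The intervals bound the difference on the 1 probe used per gene. For 34 of the 39 genes the unadjusted 95% interval lay within a doubling or a halving (a log2 fold change of 1 either way), and for 16 it lay within 1.5-fold. The exceptions to the wider bound were Zim1, Ascl2, Mirg, Zrsr1 and Zdbf2, whose upper limits were 1.45, 1.21, 1.22, 1.12 and 1.01. Other probes of a gene could lie outside such a bound, as for Rasgrf1 and Mest, described below. Gnas, which encodes the stimulatory G protein subunit that couples releasing-hormone receptors to cAMP and whose transcripts come from either parental copy by promoter, read 7.88, 7.91 and 7.91 on KO arrays and 7.91, 7.87 and 7.95 on WT arrays. Its difference was -0.01 ± 0.11 (adjusted p = 0.978 by limma), but 0.25 from the authors' deposited values, 0.17 after median centring and 0.27 after quantile normalization. The interval of Gnas under the main scaling was -0.26 to 0.25, so its value after quantile normalization lay outside it. The 3 Gnas probes gave -0.05 to -0.01 under the main scaling.

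**Figure D1:**
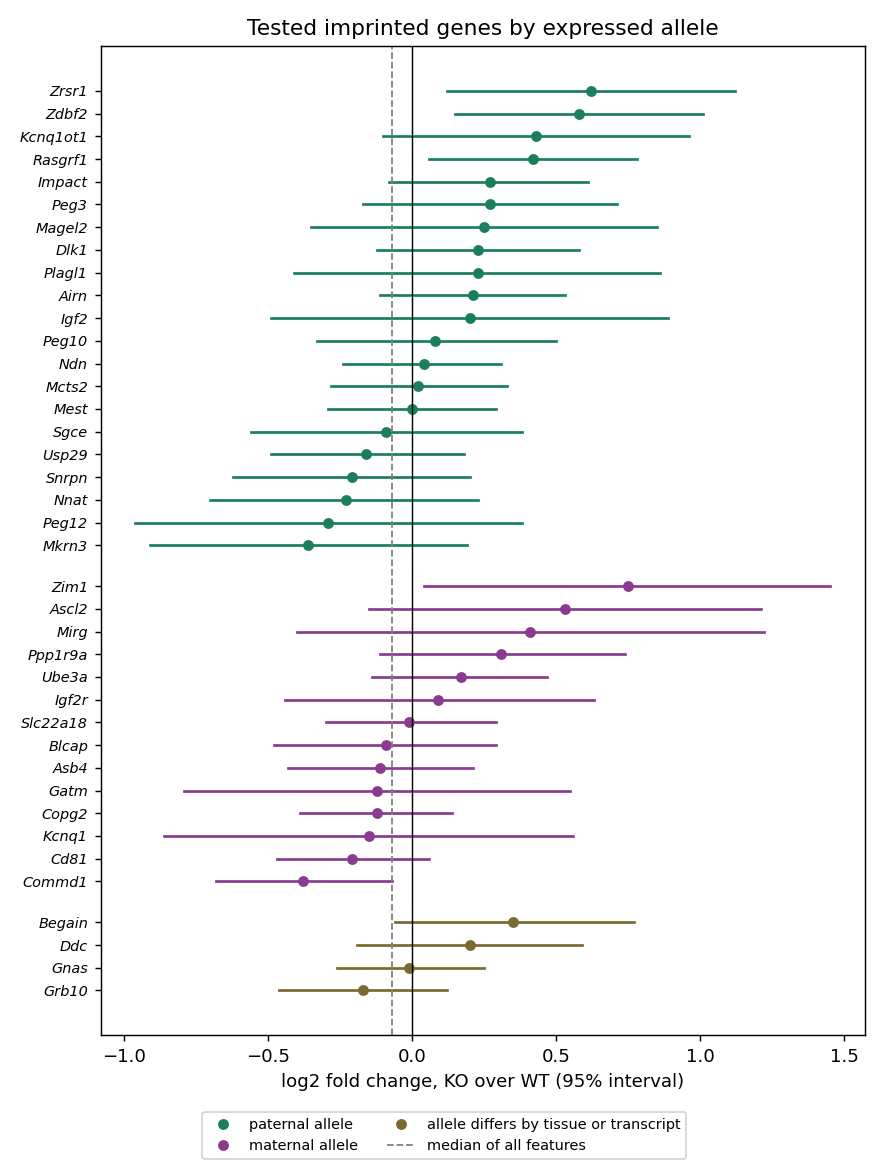
Log2 fold changes of KO over WT (points) with unadjusted 95% intervals (lines) for the 39 tested imprinted genes, grouped by the expressed parental copy; the dashed line marks the median of all features, -0.07. Zrsr1 (0.62), Zdbf2 (0.58) and Rasgrf1 (0.42) among the paternally expressed genes and Zim1 (0.75) and Commd1 (-0.38) among the maternally expressed genes are the 5 whose interval leaves out 0.

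By expressed copy, 15 of the 21 tested paternally expressed genes were above 0, with a median log2 fold change of 0.20 and values from -0.36 to 0.62. Of the 14 maternally expressed genes 6 were above 0, with a median of -0.05 and values from -0.38 to 0.75. Over all features the median was -0.07, with 39.3% above 0. At an unadjusted p under 0.05, 3 paternally expressed genes stood higher and 0 lower in KO, and 1 maternally expressed gene stood on each side, against 3.99% higher and 8.81% lower of all features. Relative to the median of all features, 15 of 21 paternally and 7 of 14 maternally expressed genes lay above it. With median centring, 33 of all 39 imprinted genes and 17 of the 21 paternally expressed ones were above 0, where the median of all features was 0.103. These counts describe the lists, whose grouping by parent was not checked for the pituitary, and carry no test. The paternal median was 0.08 with normexp background correction, 0.08 with no filter on dim probes, 0.09 with the mean of a gene's probes and 0.38 with median centring. Without WT replicate 1 it was 0.05, without KO replicate 1 it was 0.08 and without KO replicate 2 or WT replicate 3 it was 0.13, and without WT replicate 3 the maternal median was 0.15.

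The array medians of the paternally expressed genes overlapped between the groups. The median deviation of the paternally expressed genes from their own mean over 6 arrays was 0.05, 0.08 and 0.10 on the KO arrays (replicates 1 to 3) and -0.14, 0.12 and -0.21 on the WT arrays. The KO arrays lay close together, and WT replicate 2 lay above all of them while the other WT arrays lay below. The 75th percentile of the array signal, a measure of array brightness, was 246, 233 and 303 intensity units on the KO arrays and 170, 311 and 193 on the WT arrays. WT replicate 2 was thus also the brightest array, and the other WT arrays the dimmest. For 12 of the 21 paternally expressed genes, and for 46.2% of all tested members, WT replicate 2 read highest among the WT arrays, against 36.4% of all features. The part of array brightness in these medians was not tested. The maternally expressed genes had medians of -0.01, -0.04 and -0.03 on the KO arrays and -0.28, 0.15 and 0.07 on the WT arrays.

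**Figure D2:**
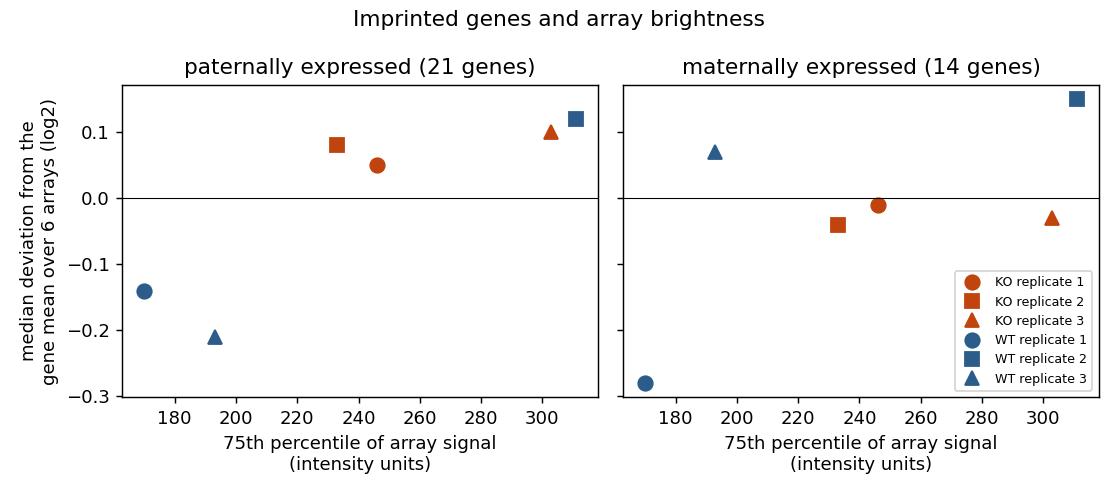
Median deviation (log2) of the paternally expressed (left) and maternally expressed (right) genes from their mean over 6 arrays, against the 75th percentile of each array's signal in intensity units; KO arrays in rust and WT arrays in blue, the marker shape giving the replicate number. For the paternally expressed genes the KO arrays (0.05 to 0.10) lie between WT replicate 2 (0.12), the brightest array, and the WT replicates 1 and 3 (-0.14 and -0.21).

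Zdbf2, a zinc-finger gene whose paternal copy promotes the growth of young mice, had the smallest p among the 39 tested genes of the list, each by its brightest probe. Its brighter probe (A_51_P213725) read 0.27, 0.66 and 0.31 on KO arrays and -0.40, -0.21 and 0.12 on WT arrays, a log2 fold change of 0.58 ± 0.18 (unadjusted p = 0.0157, adjusted p = 0.331 by limma). The groups did not overlap, and WT replicate 3 came closest to the KO arrays. Its other probe read -1.31, -0.88 and -1.34 on KO arrays and -1.91, -1.81 and -1.37 on WT arrays, with a difference of 0.52 ± 0.20. The probes thus gave nearly the same difference. Without WT replicate 3 the difference of Zdbf2 was 0.72 (unadjusted p = 0.00629 by limma), and without KO replicate 2 it was 0.46 (unadjusted p = 0.0599 by limma). Over 19 alternative settings it ran from 0.44 to 0.76.

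Zrsr1 and Commd1 share a locus, and their differences had opposite signs. Zrsr1 is a retrotransposed gene for an RNA-binding splicing factor and is expressed from the paternal copy. It lies within an intron of Commd1, which encodes a copper-handling protein that also restrains NF-kB and is expressed more from the maternal copy. Zrsr1 read 2.37, 2.50 and 2.63 on KO arrays and 1.56, 2.32 and 1.77 on WT arrays, a difference of 0.62 ± 0.21 (unadjusted p = 0.022, adjusted p = 0.344 by limma). The groups did not overlap, though WT replicate 2 was nearly at the level of KO replicate 1. Commd1 read 2.36, 2.54 and 2.49 on KO arrays and 2.71, 2.84 and 2.98 on WT arrays, a difference of -0.38 ± 0.13 (unadjusted p = 0.0222, adjusted p = 0.344 by limma). Its groups did not overlap either, and its values were close within each group. The contrast between Zrsr1 and Commd1 was not itself tested. Over 19 alternatives Zrsr1 ran from 0.46 to 0.83 and Commd1 from -0.44 to -0.20. Median centring gave -0.20 for Commd1, with an unadjusted p of 0.323 by limma. Without WT replicate 3, Zrsr1 gave 0.56 and Commd1 -0.31, with unadjusted p of 0.063 and 0.0645 by limma.

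Rasgrf1 encodes an exchange factor that activates Ras, is expressed from the paternal copy, and is known in mice for its effect on growth after birth. Its brighter probe read 2.05, 2.31 and 2.21 on KO arrays and 1.57, 1.98 and 1.76 on WT arrays, a difference of 0.42 ± 0.15 (unadjusted p = 0.0275, adjusted p = 0.355 by limma). The groups did not overlap. Its other probe, assigned another accession, read -1.41, -1.27 and -1.09 on KO arrays and -3.49, -1.37 and -3.07 on WT arrays, a difference of 1.39 ± 0.51. On that probe WT replicate 2 lay at the level of the KO arrays and the other WT arrays lay far below. The mean of both probes gave 0.90. Without WT replicate 3 the brighter probe gave 0.41, with an unadjusted p of 0.0591 by limma.

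The start regions of these 4 genes are printed because they are the genes whose brightest probe had an unadjusted p under 0.05 and groups without overlap. They are taken from RefSeq (GRCm38.p6) and span 250 bases before to 50 after an annotated start, 5′ to 3′ on the gene's strand. Where a gene had several annotated starts, the window furthest upstream was printed. The counts given below for each of these 4 genes are for the printed window only. Capitals mark the letters TGCCGC on either strand, the core that ZFP57 recognizes when its CpG is methylated. The Zdbf2 window is chr1:63200108-63200407 (+ strand). The Zrsr1 window is chr11:22971755-22972054 (+ strand), and that of Commd1, on the opposite strand, is chr11:22982235-22982534 (- strand). The Rasgrf1 window is chr9:89909525-89909824 (+ strand).
Zdbf2: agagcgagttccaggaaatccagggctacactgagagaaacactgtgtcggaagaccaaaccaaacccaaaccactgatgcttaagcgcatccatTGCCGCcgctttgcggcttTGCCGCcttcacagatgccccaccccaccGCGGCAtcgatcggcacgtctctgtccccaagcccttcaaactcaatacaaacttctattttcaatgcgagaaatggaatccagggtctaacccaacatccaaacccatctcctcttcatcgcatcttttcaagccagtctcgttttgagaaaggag
Zrsr1: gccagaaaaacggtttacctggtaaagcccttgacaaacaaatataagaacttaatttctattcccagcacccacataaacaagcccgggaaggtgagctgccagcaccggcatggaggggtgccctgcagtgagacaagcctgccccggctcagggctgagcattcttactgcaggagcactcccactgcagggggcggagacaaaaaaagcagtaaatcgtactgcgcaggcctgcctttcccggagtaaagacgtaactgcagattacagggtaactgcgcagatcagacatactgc
Commd1: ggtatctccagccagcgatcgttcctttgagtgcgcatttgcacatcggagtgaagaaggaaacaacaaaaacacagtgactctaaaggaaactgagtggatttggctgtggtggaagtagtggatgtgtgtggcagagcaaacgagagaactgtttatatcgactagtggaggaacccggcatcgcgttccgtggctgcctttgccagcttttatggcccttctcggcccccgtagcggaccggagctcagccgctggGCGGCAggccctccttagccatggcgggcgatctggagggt
Rasgrf1: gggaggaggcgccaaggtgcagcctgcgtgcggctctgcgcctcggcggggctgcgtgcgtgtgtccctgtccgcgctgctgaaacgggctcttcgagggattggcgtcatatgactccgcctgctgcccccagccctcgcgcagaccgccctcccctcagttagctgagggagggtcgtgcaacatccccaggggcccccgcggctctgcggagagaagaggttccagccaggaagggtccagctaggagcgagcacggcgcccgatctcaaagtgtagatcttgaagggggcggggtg
The search covered both strands. The core occurred 3 times in the Zdbf2 window, 1 time in that of Commd1 and 0 times in those of Zrsr1 and Rasgrf1. It was present in 14 of 63 start windows of imprinted genes (22.2%), against 11.6% of all 32851 windows in the RefSeq table. The 63 windows belong to 40 of the 46 listed genes, and the other listed genes were left out of the imprinted counts. The comparison is a description that does not take account of base composition. The windows held 15, 10, 18 and 26 CpG dinucleotides for Zdbf2, Zrsr1, Commd1 and Rasgrf1, against a median of 7 over all windows. The letters GCCATNTT, the core bound by the factor YY1, were in 2 of the 63 windows (3.17%, Mkrn3 and Ube3a), against 6.05% of all windows. A match is a description and not a bound site, and the control regions themselves can lie outside these windows.

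**Figure D3:**
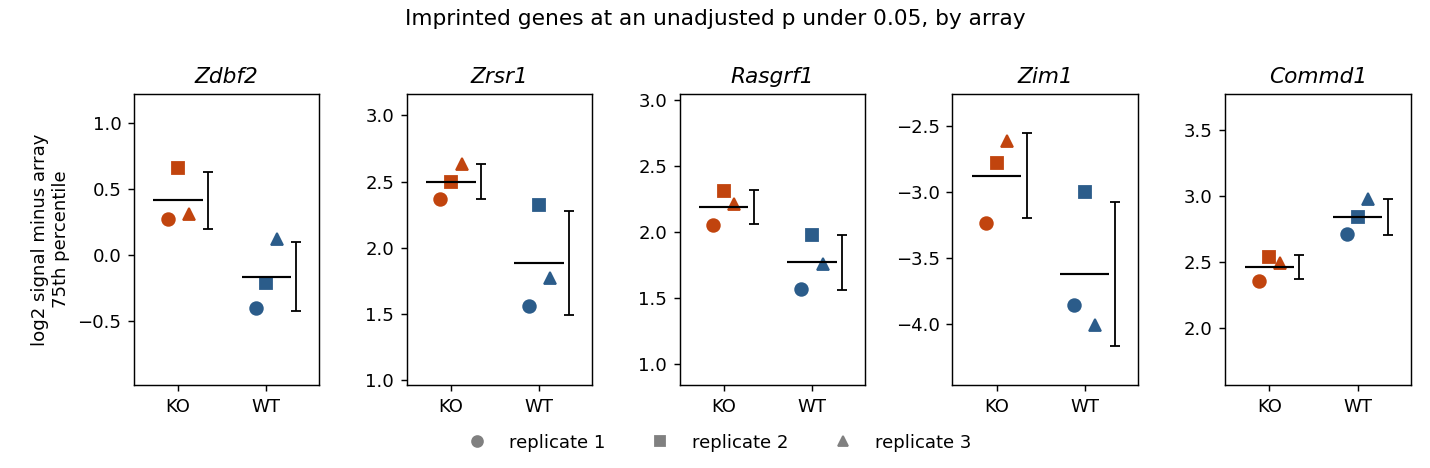
Signal (log2, relative to the array's 75th percentile) of the brightest probe of the 5 imprinted genes at an unadjusted p under 0.05, with KO left of WT in each panel; markers are arrays, lines are means and bars are 1 SD. All panels span the same range of log2 units. For Zrsr1 and Zim1 the square of WT replicate 2 (2.32 and -3.0) lies well above the other WT arrays.

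The Peg3 domain holds the maternally expressed Zim1 and the paternally expressed Peg3 and Usp29. Zim1, a zinc-finger gene, had the largest difference among the brightest probes of the list, 0.75 ± 0.30 (unadjusted p = 0.041, adjusted p = 0.377 by limma), with -3.24, -2.78 and -2.62 on KO arrays and -3.86, -3.0 and -4.01 on WT arrays. The groups overlapped, since WT replicate 2 read above KO replicate 1. The signal was dim, and with normexp background correction the difference was 0.06. Without WT replicate 3 it was 0.55, with an unadjusted p of 0.126 by limma. A second, dimmer Zim1 probe was well above background on 2 KO arrays and on 0 WT arrays, with means of -4.73 and -5.80 in that order. Peg3, a zinc-finger transcription factor gene, read 2.60, 2.59 and 2.78 on KO arrays and 2.03, 2.66 and 2.48 on WT arrays (0.27 ± 0.18). Without WT replicate 1 the Peg3 difference was 0.09, and without WT replicate 2 it was 0.41. Usp29, which encodes a ubiquitin protease, read 0.70, 0.72 and 0.77 on KO arrays and 0.73, 1.12 and 0.81 on WT arrays (-0.16 ± 0.14). Both genes start within the same stretch and run apart from it: their RefSeq windows share 263 bases. The window of Peg3, chr7:6730370-6730669 (- strand, GRCm38.p6), is shown because both transcripts begin in it, with no TGCCGC in it.
Peg3: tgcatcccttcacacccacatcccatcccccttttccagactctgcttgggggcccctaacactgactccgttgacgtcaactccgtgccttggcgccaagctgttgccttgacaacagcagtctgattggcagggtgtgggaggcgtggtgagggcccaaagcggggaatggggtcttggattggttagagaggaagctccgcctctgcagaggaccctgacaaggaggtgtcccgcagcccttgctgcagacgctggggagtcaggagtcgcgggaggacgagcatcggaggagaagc
The differences of Peg3 and Usp29 had opposite signs, and neither had an unadjusted p under 0.05.

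In the Dlk1-Meg3 domain the paternally expressed Dlk1, a membrane-bound and shed relative of the Notch ligands, was measured by 2 probes. The brighter read 8.65, 8.82 and 8.39 on KO arrays and 8.46, 8.43 and 8.27 on WT arrays, a difference of 0.23 ± 0.15 with overlapping groups (adjusted p = 0.518 by limma). The other read 6.50, 6.75 and 6.29 on KO arrays and 5.84, 6.19 and 5.73 on WT arrays, a difference of 0.59 ± 0.18 without overlap (unadjusted p = 0.0152, adjusted p = 0.339 by limma over all probes). Since the brightest probe of a gene was used, Dlk1 did not count among the 5 genes named above. It had an unadjusted p under 0.05 with normexp, quantile normalization, median centring, the mean of its probes and in the authors' deposited values, where its difference was 0.54. Without KO replicate 2 the brighter probe gave 0.13 (unadjusted p = 0.46 by limma), and within slide row 1 alone 0.16 (unadjusted p = 0.435 by limma). The slide row was taken from a number in the array names, and row 1 held replicates 1 and 3 of each group. Mirg, a maternally expressed RNA of the domain that hosts microRNAs, read 0.72, 0.48 and 0.94 on KO arrays and 0.02, 1.11 and -0.21 on WT arrays (0.41 ± 0.34), again with WT replicate 2 above the KO arrays. Begain, a gene next to Dlk1, read 0.77, 1.06 and 1.01 on KO arrays and 0.84, 0.30 and 0.65 on WT arrays (0.35 ± 0.17, adjusted p = 0.432 by limma), with overlapping groups. Dio3, which encodes the enzyme that inactivates thyroid hormone, and the retrotransposon-derived Rtl1 were each well above background on too few arrays to be tested.

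The probes of a gene did not always give the same answer. Of 17 tested members with several tested probes, 8 had probes on both sides of 0. Mest, a paternally expressed gene for a hydrolase-like protein, had the widest spread. The brightest of its 3 probes read 5.26, 5.38 and 5.32 on KO arrays and 5.18, 5.35 and 5.43 on WT arrays, a difference of 0.00 ± 0.12. Another Mest probe read 4.81, 5.64 and 5.55 on KO arrays and 3.89, 4.74 and 4.71 on WT arrays, a difference of 0.89 ± 0.31 without overlap (unadjusted p = 0.0262, adjusted p = 0.363 by limma over all probes). That probe was printed 10 times on each array, and its spots agreed within an SD of 0.04 to 0.05 on every array, so its arrays differed by more than its spots did. The third Mest probe gave -0.27 ± 0.19. It was assigned the same accession as the brightest probe, while the probe printed 10 times was assigned another. Copg2, a coat protein gene that overlaps the end of Mest on the other strand, gave -0.12 and -0.20 by its 2 probes, with KO below WT on every array for both.

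Peg10, a paternally expressed gene derived from a retrotransposon, had the smallest p of any imprinted probe, on a probe that did not represent it. That probe read -3.99, -3.80 and -4.13 on KO arrays and -3.22, -3.16 and -3.06 on WT arrays, a difference of -0.83 ± 0.14 (unadjusted p = 0.000566, adjusted p = 0.258 by limma over all probes). The groups lay far apart relative to their spread. The other Peg10 probe, brighter on average, read -3.07, -2.98 and -3.29 on KO arrays and -3.30, -2.89 and -3.41 on WT arrays, a difference of 0.08 ± 0.18. The Peg10 probes were assigned the same accession and were dim on all arrays. Sgce, which shares the Peg10 start region and encodes a sarcoglycan, read 2.50, 2.58 and 2.77 on KO arrays and 2.55, 3.11 and 2.45 on WT arrays (-0.09 ± 0.20). Counted by probe, 10 of 61 imprinted probes (16.4%) from 8 genes had an unadjusted p under 0.05, against 12.4% of all probes.

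**Figure D4:**
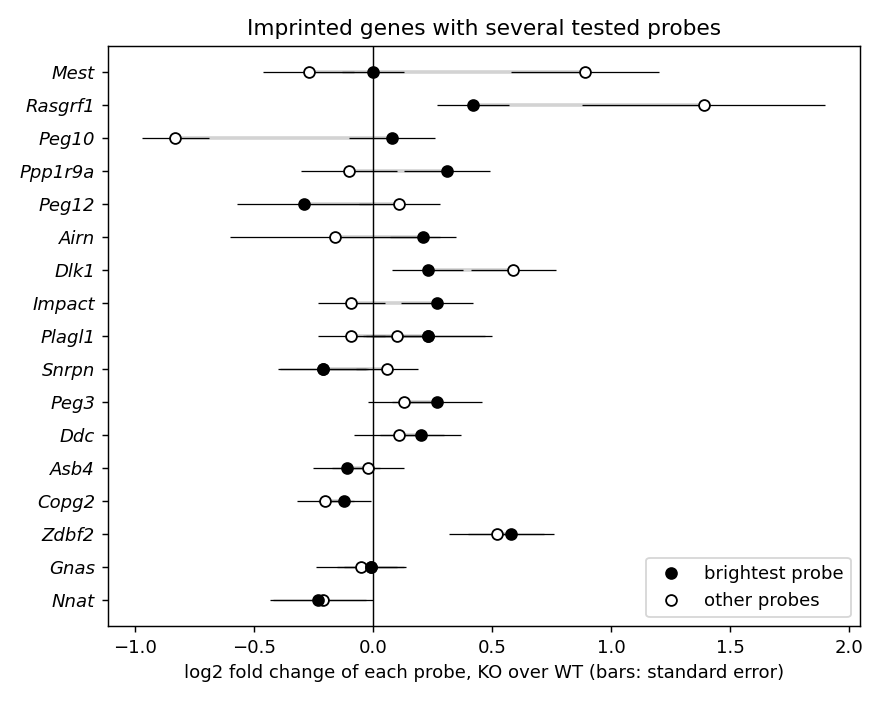
Log2 fold change (KO over WT) of every tested probe for the 17 imprinted genes with several tested probes, sorted by the spread between probes; filled points are the brightest probe, open points the others, bars the standard error. The probes of Nnat, Gnas and Zdbf2 nearly coincide, while those of Mest, Rasgrf1 and Peg10 lie 1.16, 0.97 and 0.91 log2 units apart.

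In the Prader-Willi and Angelman region the 6 tested genes were spread around 0. Ndn, which encodes necdin, a regulator of neuronal growth, read 1.85, 2.02 and 2.01 on KO arrays and 1.94, 1.87 and 1.95 on WT arrays (0.04 ± 0.12). Snrpn, which encodes a splicing protein, read 1.82, 2.18 and 2.11 on KO arrays and 1.96, 2.40 and 2.38 on WT arrays (-0.21 ± 0.17). The groups overlapped for both. The ubiquitin ligase gene Ube3a, expressed from the maternal copy in neurons, gave 0.17 ± 0.13. Magel2, Peg12 and Mkrn3, the last known in humans as a brake on puberty, gave 0.25 ± 0.25, -0.29 ± 0.28 and -0.36 ± 0.23 at signal below the 75th percentile (adjusted p = 0.515 to 0.659 by limma).

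Plagl1 and the genes of the Igf2r and Grb10 domains had no unadjusted p under 0.05. Plagl1, a zinc-finger transcription factor gene known to regulate other imprinted genes, read 6.25, 6.30 and 6.38 on KO arrays and 5.50, 6.61 and 6.13 on WT arrays (0.23 ± 0.27). Its WT arrays spanned more than the whole KO group, and without WT replicate 1 the difference was -0.06, against 0.49 without WT replicate 2. Igf2, the growth factor gene, was dim (0.20 ± 0.29). Igf2r, whose product clears that factor, read 1.18, 1.15 and 0.93 on KO arrays and 0.50, 1.21 and 1.28 on WT arrays (0.09 ± 0.23; -0.15 without WT replicate 1), and its antisense RNA Airn read -0.57, -0.67 and -0.46 on KO arrays and -0.78, -0.63 and -0.93 on WT arrays (0.21 ± 0.13; 0.13 without WT replicate 3). Grb10, an adaptor that dampens insulin and growth factor receptors, read -1.80, -1.84 and -2.05 on KO arrays and -1.67, -1.75 and -1.77 on WT arrays (-0.17 ± 0.12). Its groups did not overlap but lay close. Its neighbour Ddc, for the decarboxylase of dopamine and serotonin synthesis, read 0.74, 0.65 and 0.81 on KO arrays and 0.54, 0.80 and 0.26 on WT arrays (0.20 ± 0.16; 0.06 without WT replicate 3).

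Of the genes around Kcnq1, the tetraspanin gene Cd81 read 6.21, 6.30 and 6.25 on KO arrays and 6.44, 6.40 and 6.54 on WT arrays, a difference of -0.21 ± 0.11 without overlap (adjusted p = 0.461 by limma). Quantile normalization gave 0.02 for Cd81. The non-coding Kcnq1ot1, which silences its neighbours on the paternal copy, gave 0.43 ± 0.22, and the channel gene Kcnq1 gave -0.15 ± 0.30. The transporter gene Slc22a18 read -0.45, -0.38 and -0.42 on KO arrays and -0.34, -0.57 and -0.32 on WT arrays (-0.01 ± 0.12). Ascl2, a transcription factor gene, was dim (mean level -2.85) and gave 0.53 ± 0.29. It had an unadjusted p under 0.05 with quantile normalization, median centring, the authors' deposited values, without KO replicate 3 and without WT replicate 2, but not in the other 14 alternatives. Phlda2, a placental growth restraint, exceeded background well on 0 of 6 arrays, and Calcr, the calcitonin receptor gene, on 1 WT array, so neither was tested.

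The remaining members had no unadjusted p under 0.05. Nnat, which encodes a small membrane protein of neuroendocrine cells, read 6.56, 6.75 and 6.91 on KO arrays and 7.22, 7.10 and 6.59 on WT arrays (-0.23 ± 0.20). Without WT replicate 3 the Nnat difference was -0.42, with an unadjusted p of 0.0363 by limma, and quantile normalization gave 0.04. Blcap, in whose intron it lies, read 1.1, 1.14 and 1.39 on KO arrays and 1.53, 1.09 and 1.30 on WT arrays (-0.09 ± 0.16). Impact, an inhibitor of a stress-activated translation kinase, read 4.28, 4.40 and 4.47 on KO arrays and 4.07, 4.34 and 3.94 on WT arrays (0.27 ± 0.15). The other Impact probe gave -0.09 ± 0.14. The brighter one gave 0.44 with median centring (unadjusted p = 0.0282 by limma), 0.33 from the authors' deposited values (unadjusted p = 0.0426 by limma) and 0.38 without WT replicate 2 (unadjusted p = 0.0295 by limma). Asb4, for a ubiquitin ligase adaptor, read 4.89, 4.69 and 4.84 on KO arrays and 4.85, 4.79 and 5.10 on WT arrays (-0.11 ± 0.14). Ppp1r9a, for an actin-binding phosphatase scaffold, gave 0.31 ± 0.18 and -0.10 ± 0.20 by its 2 probes. Mcts2, a translation factor retrogene, read 1.91, 2.12 and 1.91 on KO arrays and 1.95, 1.85 and 2.07 on WT arrays (0.02 ± 0.13). Gatm, for an enzyme of creatine synthesis, read -3.08, -3.30 and -3.24 on KO arrays and -3.72, -2.98 and -2.57 on WT arrays (-0.12 ± 0.28).

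Among 34 further imprinted genes, 27 were tested and 6 had an unadjusted p under 0.05 (22.2%, against 12.8% of all features), 2 higher and 4 lower in KO, with 0 at an adjusted p under 0.05 (lowest 0.264, limma). The median was -0.01. Whether these further genes are imprinted in the pituitary was not checked. Among the 4 lower genes were Cdkn1c at -0.56 and Dcn, for the matrix protein decorin, at -0.52. Dcn is also among the mesenchyme markers given above. The smallest p belonged to Sfmbt2, a Polycomb-group gene, at -0.82 ± 0.19, Herc3 at -0.49 ± 0.12, Qpct, for an enzyme that modifies the ends of peptide hormones, at 0.71 ± 0.17, and the paraoxonase gene Pon3 at 0.44 ± 0.14. Sfmbt2 was dim, between -4.15 and -2.85 on the arrays, and only the brightest of its 3 probes was used. Qpct read 3.08, 3.01 and 3.45 on KO arrays and 2.62, 2.55 and 2.25 on WT arrays, without overlap.

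Of 31 genes that set, read or maintain imprints, 28 were tested, with 1 higher and 2 lower at an unadjusted p under 0.05 (10.7%, against 12.8% of all features) and 0 at an adjusted p under 0.05 (lowest 0.336, limma). The median was 0.01. Arid4b, a chromatin gene linked to imprinting in the Prader-Willi region of mice, gave 0.48 ± 0.16. Uhrf1, which guides DNMT1 to replicating DNA, gave -1.87 ± 0.66, and the Polycomb methyltransferase gene Ezh2 -0.68 ± 0.26. Uhrf1 read -2.48, -3.20 and -2.97 on KO arrays and -1.46, -2.18 and 0.58 on WT arrays, highest on the WT array that also had the most dividing-cell transcripts. The part of dividing cells in the Uhrf1 and Ezh2 values was not tested. Setdb1, for a histone methyltransferase that acts with TRIM28, gave 0.38 ± 0.16, Zfp57 itself gave -0.20 ± 0.16, and Trim28 and Dnmt1 gave 0.09 ± 0.14 and -0.04 ± 0.18.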

How the data were processed

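Pituitary RNA of 3 KO and 3 WT females was labelled with Cy3 and hybridised to one-colour Agilent arrays, per the labels. Per the file headers, Feature Extraction 11.0.1.1 wrote the deposited intensity values (gProcessedSignal), background-subtracted but not normalized between arrays. The authors' deposited value table holds log2 values (column medians of 8.25 to 8.26) with normalization, centring and direction of scaling unstated, and each column correlated at 0.997 or more with the log2 spot brightness of its array. The submitters' processing notes name limma.

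Control and outlier-flagged spots were left out, log2 spot values averaged per probe, and each array's 75th percentile subtracted. A probe entered the fit if 3 or more arrays had it well above background, and the brightest probe stood for a gene. RefSeq accessions (GRCm38.p6 table) named 27656 of 55681 probes. All 26886 features were fitted in R 4.3.3 with limma 3.58.1 (lmFit, eBayes, two-sided) and Benjamini-Hochberg adjustment over all of them. The steps were tested on simulated data. The members, lists and alternatives were chosen with earlier results of these data known. Values on every array are given for members at an unadjusted p under 0.05, for Kdm4a and for the 2 members with the highest signal per imprinted domain, and all probes of a member are compared. From each further list up to 4 genes with the smallest p were named. The array values of Mirg, Peg10, Qpct and Uhrf1, and the naming of Cdkn1c, Dcn, Zfp57, Trim28 and Dnmt1, were chosen after their values were seen. The labels call the females independent littermates.

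Replicate numbers are shared between the groups, but the labels give no pairing, and deviations of same-numbered arrays correlated at 0.15, -0.18 and -0.08. The alternatives are given in the closing section.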

Additional observations from a re-analysis of the deposited data

How the results depend on the processing

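The count of imprinted genes with an adjusted p under 0.05 was 0 in all 19 alternatives. Over all features the count was 24 with normexp, 19 with median centring, 27 from the authors' deposited values, 12 with probes well above background on all arrays, 28 with a variance trend and robust fitting, and 0 to 1 when leaving out each array. The number of imprinted genes at an unadjusted p under 0.05 was 11 of 39 with median centring (28.2%, against 13.6% of all features), 8 of 33 in the authors' value table (24.2%, against 14.3%), and 1 to 9 when leaving out each array. Median centring moved the median of all features to 0.103, against -0.074 with the 75th percentile. It gave list medians of 0.38 (paternal) and 0.13 (maternal), with 15 of 21 and 7 of 14 genes above the median of all features, as many as before. Leaving out each array gave 0.05 to 0.24 for the paternal and -0.08 to 0.15 for the maternal median. Normexp, no filter on dim probes and the mean of a gene's probes gave paternal medians of 0.08, 0.08 and 0.09, and quantile normalization a maternal median of 0.04. Across the alternatives 14 to 17 paternally expressed genes lay above the median of all features, except in the authors' value table with 12 of 17.

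With the replicate block the numbers were the same (0 called, 5 at an unadjusted p under 0.05, medians of 0.20 and -0.05), and Zdbf2 had an adjusted p of 0.451. Within slide row 1 alone (2 arrays per group) Zrsr1 read 0.83, Rasgrf1 0.46, Zim1 1.01, Zdbf2 0.44 and Commd1 -0.42. There Zrsr1, Rasgrf1 and Zim1 had an unadjusted p under 0.05, while Zdbf2 and Commd1 had 0.111 and 0.0705 by limma. Row 2 held only KO replicate 2 and WT replicate 2, the latter the brightest array, so row and brightness cannot be told apart for it. Zim1 was not in the authors' value table. Signs turned for genes between -0.23 (Nnat) and 0.23 (Plagl1). With median centring these were Asb4 (0.07), Blcap (0.08), Copg2 (0.05), Gatm (0.06), Gnas (0.17), Grb10 (0.01), Sgce (0.09), Slc22a18 (0.17) and Usp29 (0.02). With quantile normalization they were Asb4 (0.03), Cd81 (0.02), Gatm (0.06), Gnas (0.27), Nnat (0.04) and Slc22a18 (0.02), with normexp Gnas (0.04) and Sgce (0), and in the authors' value table Gnas (0.25), Asb4 (0) and Mcts2 (0). Slide row 1 alone turned Mcts2 (-0.10), Mest (-0.02), Ndn (-0.02) and Sgce (0.14). Leaving out each array in turn gave both signs for Gnas (-0.03 to 0.01), Slc22a18 (-0.09 to 0.04), Mcts2 (-0.05 to 0.08), Mest (-0.07 to 0.05), Blcap (-0.21 to 0.02), Igf2r (-0.15 to 0.24), Plagl1 (-0.06 to 0.49), Sgce (-0.21 to 0.12) and Gatm (-0.44 to 0.14). The cause of these shifts was not tested. Zdbf2, Zrsr1, Rasgrf1 and Commd1 kept their sign in all 19 alternatives. So did Airn, Begain, Ddc, Dlk1, Impact, Peg3 and Snrpn, none of which had an unadjusted p under 0.05 in the main fit. Zim1 kept its sign in the 18 alternatives that held it. Signal over background limits Zim1, Peg10, Igf2, Gatm, Ascl2, Magel2 and Mkrn3, which were dim.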

Other observations

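Several paternally expressed transcripts lie within an intron of a larger gene, as Zrsr1 does in Commd1. The 5 such pairs looked at here were chosen after their values were seen. Nap1l5, a nucleosome assembly gene within Herc3, read 3.48, 3.87 and 3.64 on KO arrays and 2.83, 3.56 and 3.22 on WT arrays, a log2 fold change of 0.46 ± 0.21. Herc3, for a ubiquitin ligase of the HECT family, read 2.07, 2.25 and 2.03 on KO arrays and 2.64, 2.58 and 2.61 on WT arrays, a log2 fold change of -0.49 ± 0.12 without overlap between the groups (unadjusted p = 0.00464, adjusted p = 0.269 by limma). In the non-coding Peg13 and its host Trappc9 the values were 0.16 ± 0.13 and -0.21 ± 0.14. Trappc9 read 3.99, 3.90 and 3.86 on KO arrays and 4.01, 4.04 and 4.34 on WT arrays. Mcts2 and its host H13, which encodes a membrane protease, gave 0.02 ± 0.13 and -0.31 ± 0.20. H13 read 4.59, 4.61 and 4.59 on KO arrays and 4.61, 4.78 and 5.33 on WT arrays, with overlapping groups. For both Trappc9 and H13 the highest reading was that of WT replicate 3. Nnat and Blcap, given above, were both below 0. The nested transcript was thus above 0 and its host below 0 in 4 of the 5 pairs, among them Zrsr1 and Commd1, and no test was made of this pattern. Mcts2, at 0.02, had the opposite sign in 4 of 19 alternatives, and 39.3% of all features were above 0, so a host below 0 is the more common case. The separation of nested from host transcripts rests on the accession assigned to each probe.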
